A study of Thermothelomyces thermophilus with 4 samples.

Results

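The transcriptome of Thermothelomyces thermophilus, a heat-loving filamentous fungus that the labels call Myceliophthora thermophila, was compared between mycelium grown on canola straw and mycelium grown on flax straw. The canola and flax libraries are 2 of the 4 libraries of the series and were chosen by their labels, not by their values. The canola culture was taken after 30 h and the flax culture after 24 h, both from shaken cultures at 45 °C that had been started from spores in a defined medium with straw as the carbon source. Polyadenylated RNA was sequenced from 1 library per straw, with no replicate culture, and the strain is not given in the sources used here. Straw and culture time differ together, so the effect of one cannot be told apart from that of the other. The remaining libraries, oat straw and triticale straw, both 24 h, are given as further levels of the same genes. They match the flax culture, and not the canola culture, in time.

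Fungi of this kind live on dead plant matter and secrete enzymes that cut the cellulose, hemicellulose and pectin of plant cell walls into sugars that the cell can take up. The genes of these enzymes are controlled at the level of transcription, and different plant materials and stages of their breakdown call up different sets. Canola, a brassica, and flax, a plant grown for its bast fibres and oil seed, are both dicots, whose walls differ in hemicellulose and pectin from those of the grasses. Besides wall-degrading enzymes, filamentous fungi carry groups of neighbouring genes that are switched on together.

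The libraries held 7977329 reads on canola and 7955444 on flax, so their depth was nearly equal. Values are FPKM, read counts divided by gene length in kilobases and by the library's reads on genes, scaled to 1000000 reads. Of the 9110 gene models, 8244 had a mean of at least 1 FPKM over the 2 libraries and were compared, and 866 were left out, 194 of them with 0 reads in both. Ratios between genes' levels were ranked on the scale of FPKM + 1, which understates differences of low genes, and the ratio quoted for a single gene is that of FPKM with a 95% counting interval. The intervals cover counting error only and not the variation between cultures. Of all models, 6 carry a symbol, and the others are named by locus tag with no role given, because the sources used here do not describe their products.

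On canola straw 651 genes (7.90% of those compared) were at least 2-fold above flax, and on flax straw 289 genes (3.51%) were at least 2-fold above canola. At 4-fold, 144 genes (1.75%) were higher on canola and 27 genes (0.328%) on flax. At 8-fold the numbers were 25 and 3, and at 16-fold 8 and 0. The remaining 7304 genes, 88.6% of those compared, lay within 2-fold on the scale of FPKM + 1. The bulk of the distribution was centred, with a median log2 ratio of canola to flax of -0.02 and quartiles of -0.34 and 0.35, while its ends were uneven, at 5.72 on the canola side and -3.22 on the flax side. With a pseudocount of 10 in place of 1 the counts were 292 and 111 at 2-fold and 51 and 10 at 4-fold. With a pseudocount of 0.1 they were 770 and 408 at 2-fold and 215 and 47 at 4-fold. When the whole counting interval of the ratio had to lie past 2-fold, 462 genes were higher on canola and 154 on flax.

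**Figure D1:**
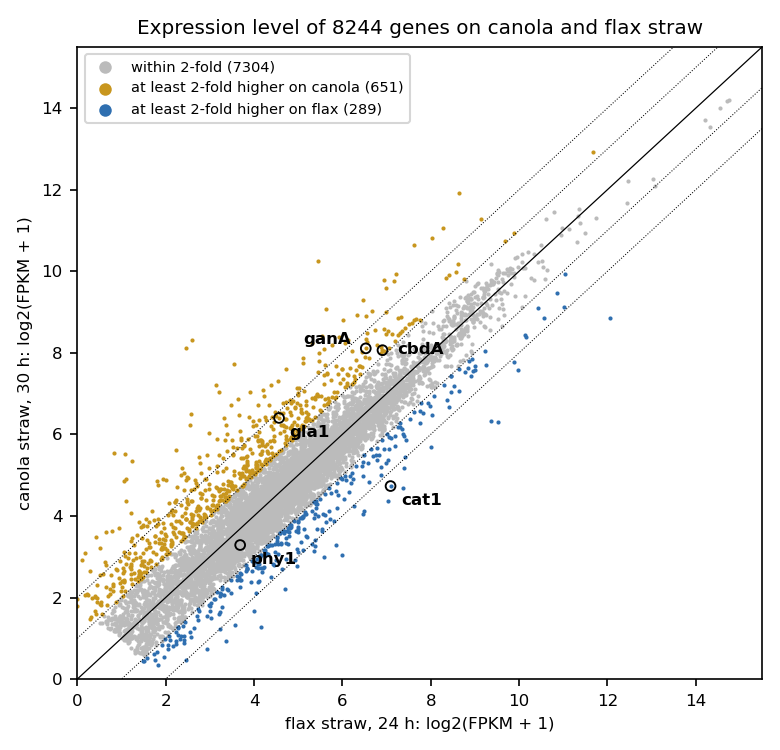
Each point is 1 of the 8244 genes compared, with its log2(FPKM + 1) on flax straw (24 h) on the x axis and on canola straw (30 h) on the y axis; the solid line marks equal levels and the dotted lines 2-fold and 4-fold differences. The 651 canola-higher genes spread farther from the line than the 289 flax-higher genes, and the circles mark the 5 compared genes that carry a symbol.

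Genes next to the thresholds, which were set on the scale of FPKM + 1, show where the division falls. At 2-fold, MYCTH_2305769 (25.9 FPKM on canola, 12.4 on flax) was just inside and MYCTH_2296175 (26.4 and 12.7) just outside. On the flax side MYCTH_2122175 (0.993 FPKM on canola, 2.99 on flax) was just inside and MYCTH_107186 (10.6 and 22.2) just outside. At 4-fold the canola-higher genes on either side were MYCTH_2308450 (44.7 FPKM on canola, 10.4 on flax) and MYCTH_2305566 (8.74 and 1.44). The corresponding flax-higher genes were MYCTH_2308106 (39.0 FPKM on flax, 8.998 on canola) and MYCTH_2299900 (8.38 and 1.36). As plain ratios of FPKM the order at 4-fold was the reverse, because adding 1 lowers the ratios of low genes more. MYCTH_2305566 and MYCTH_2299900, outside the rule, had plain ratios of 6.08 and 6.16, and MYCTH_2308450 and MYCTH_2308106, inside it, had 4.29 and 4.34. MYCTH_2122175 rested on 5 reads on canola and 15 on flax.

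Of the 6 genes with a symbol, 3 were at least 2-fold higher on canola and 1 was at least 2-fold higher on flax, where the shares over all genes compared were 7.90% and 3.51%. The canola-higher genes encode enzymes that act on polysaccharides or their products. The flax-higher gene, cat1, encodes a catalase, which breaks down hydrogen peroxide. All 4 stayed past 2-fold with a pseudocount of 10 and under every scaling tried.

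The cbdA transcript, for cellobiose dehydrogenase, a secreted enzyme that oxidises the cellulose fragment cellobiose, stood at 267 FPKM on canola (261 to 273) and 119 on flax (114.95 to 123). The oat and triticale libraries were higher than both, at 807 and 498 FPKM. The ratio of canola to flax was 2.24 (2.15 to 2.34), rank 509 of 8244 from the canola end. Among the genes with a symbol that favoured canola, cbdA thus had the smallest ratio, and it was the one with both cereal libraries above canola.

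The ganA transcript, for an endo-galactanase that cuts the galactan side chains of pectin, had 275 FPKM on canola (265 to 286) and 91.5 on flax (85.3 to 97.9), with 142 on oat and 131 on triticale. Its ratio of 3.01 (2.78 to 3.26) ranked 269. The gla1 transcript, for glucoamylase, which releases glucose from starch, had 83.7 FPKM on canola (79.6 to 87.8) and 22.7 on flax (20.6 to 24.9), with 36.9 on oat and 20.3 on triticale. Its ratio of 3.68 (3.31 to 4.11) ranked 185. Both were highest on canola. For ganA flax was the lowest of the 4 libraries, while for gla1 flax and triticale were close, with counting intervals that overlap (18.2 to 22.7 FPKM on triticale).

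The cat1 transcript had 135 FPKM on flax (131 to 140), 25.6 on canola (23.6 to 27.8), 14.1 on oat and 4.32 on triticale, and the 4 counting intervals did not overlap. Its ratio of flax to canola was 5.29 (4.84 to 5.79). On the scale of FPKM + 1, cat1 ranked 15 of 8244 from the flax end. The phy1 transcript, for a phytase that frees phosphate from phytate, had 11.9 FPKM on flax (10.0 to 13.97) and 8.76 on canola (7.19 to 10.6). Oat and triticale were lower, at 3.72 and 1.30 FPKM. The phy1 ratio of flax to canola, 1.36 (1.05 to 1.75), was short of 2-fold. The FPKM intervals overlap, though the interval of the ratio excludes equal levels as far as counting error goes. The laccase gene lcc1, of a family of copper enzymes that oxidise phenols, had 4 reads on canola and 2 on flax, so a difference was not detectable at this depth.

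**Figure D2:**
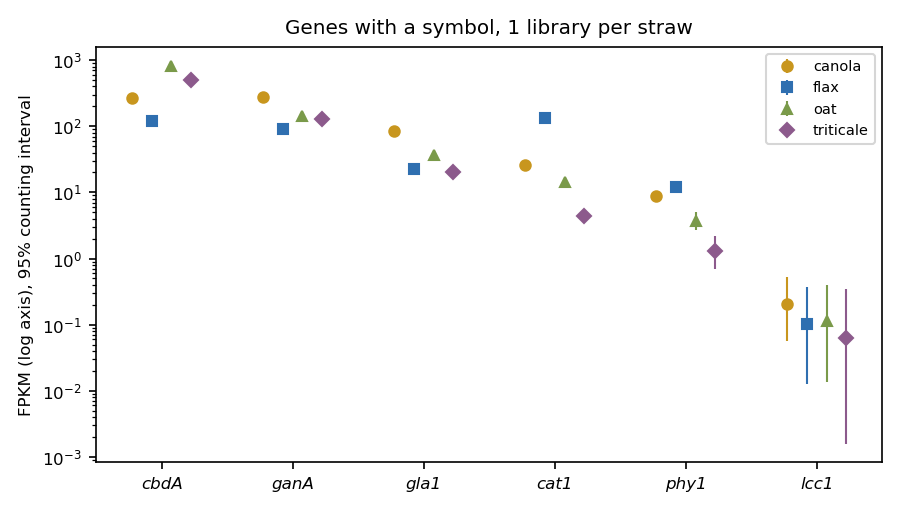
FPKM (log axis) of the 6 genes with a symbol in each of the 4 libraries, with bars for the 95% counting interval; each straw is 1 library. The cbdA, ganA and gla1 points are higher on canola than on flax, cat1 is highest on flax at 135 FPKM, and the lcc1 points lie on 1 to 4 reads.

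The genes beside those with a symbol mostly lay within 2-fold on the scale of FPKM + 1, as did 88.6% of all genes compared. The neighbours of gla1 on either side, MYCTH_2311886 and MYCTH_2311889, had ratios of canola to flax of 0.92 and 0.96. Those of ganA, MYCTH_2107102 and MYCTH_2107104, had 1.26 and 1.03. Next to cat1, MYCTH_2304406 had a ratio of 1.19, while MYCTH_2118274, at 0.91 FPKM on canola and 2.03 on flax, was short of 2-fold on the scale of FPKM + 1 at a log2 ratio of -0.66. Next to cbdA, MYCTH_101399 went the other way from cbdA, with 2.20 FPKM on canola and 5.73 on flax. The second gene to the other side of cbdA, MYCTH_2305269, ran the same way as cbdA, with 33.4 FPKM on canola and 16.4 on flax, and was just short of 2-fold on the scale of FPKM + 1 at a log2 ratio of 0.99. At phy1 the second gene to one side, MYCTH_59005, had 316 FPKM on canola against 68.5 on flax, a ratio of 4.62, though phy1 itself was slightly higher on flax. At lcc1 the second gene to one side, MYCTH_2134461, had 203 FPKM on canola and 57.3 on flax.

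The 651 canola-higher genes had a middle value of 32.6 FPKM on canola (quartiles 12.4 and 85.4) and 9.80 on flax (3.196 and 27.5). Of these, 517 reached 10 FPKM on canola and 145 reached 100 FPKM. Their flax value was seldom near the detection limit, since 23 of the 651 had 3 reads or fewer on flax. Over all 8244 genes compared, 69 had 3 reads or fewer in the lower of the canola and flax libraries. Such genes were thus a larger share of this set, and the filter on mean FPKM keeps them few. On the 24 h cereal libraries their median was 18.1 FPKM on oat and 11.7 on triticale. Their summed share of reads was 11.6% on canola and 3.52% on flax, with 8.04% on oat and 7.15% on triticale. The set was chosen on the canola and flax values, so these shares describe it and are no test.

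On the scale of FPKM + 1, the largest ratio among genes that reached 10 FPKM on canola was that of MYCTH_2309660. It had 318 FPKM on canola (305 to 331) and 5.07 on flax (3.58 to 6.95). Its ratio was 62.7 (45.6 to 88.9), and oat and triticale, at 216 and 365 FPKM, stood with canola. MYCTH_2314555 followed at 278 FPKM on canola against 4.50 on flax, a ratio of 61.7 (40.9 to 97.6), with 93.6 on oat and 86.6 on triticale. In these genes flax was the library apart from the other 3.

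The reverse arrangement, with canola apart from the rest, was seen in MYCTH_110028, at 1219 FPKM on canola (1200 to 1238) against 42.9 on flax, 57.7 on oat and 77.6 on triticale. Its ratio of canola to flax was 28.4 (26.1 to 30.9). MYCTH_2306267 reached 540 FPKM on canola against 48.3 on flax, 52.1 on oat and 41.6 on triticale, a ratio of 11.2 (10.3 to 12.2). For these genes the flax value lay among or near the cereal values, and the canola library was the one that differed.

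In MYCTH_64095 both dicot straws were above the cereals. It had 211 FPKM on canola (205 to 217), 10.7 on flax (9.46 to 12.1), 2.47 on oat and 0.960 on triticale. MYCTH_2019397 had 48.0 FPKM on canola, 3.69 on flax (2.36 to 5.49), 2.34 on oat (1.28 to 3.93) and 0.753 on triticale, so that its flax and oat values, on 24 and 14 reads, could not be told apart. MYCTH_52904 was the opposite case, with 225 FPKM on oat and 235 on triticale, 73.7 on canola (68.3 to 79.5) and 4.87 on flax (3.55 to 6.52). Its ratio of canola to flax was 15.1 (11.2 to 20.9), although canola was itself the second lowest of the 4 libraries.

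Of the 15 canola-higher genes with the largest ratios, which ran from 10.4-fold to 52.6-fold on the scale of FPKM + 1, 13 had canola as the highest of the 4 libraries and 12 had flax as the lowest. MYCTH_112051 (147 FPKM on canola, 7.88 on flax, 91.1 on oat, 92.2 on triticale) and MYCTH_112714 (89.3, 4.91, 36.6 and 46.8, in the same order) had the cereal values between the others and, taken as ratios, nearer to canola. MYCTH_2312477 (131 FPKM on canola, 8.31 on flax, 29.2 on oat, 13.3 on triticale) had them nearer to flax. MYCTH_98316, a model of 326 bases, rested on 3 reads on flax and 76 on canola, and its ratio of 25.3 had an interval of 8.32 to 125. Of the 15 genes, 4 belong to 1 run of neighbouring genes described with the runs.

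**Figure D3:**
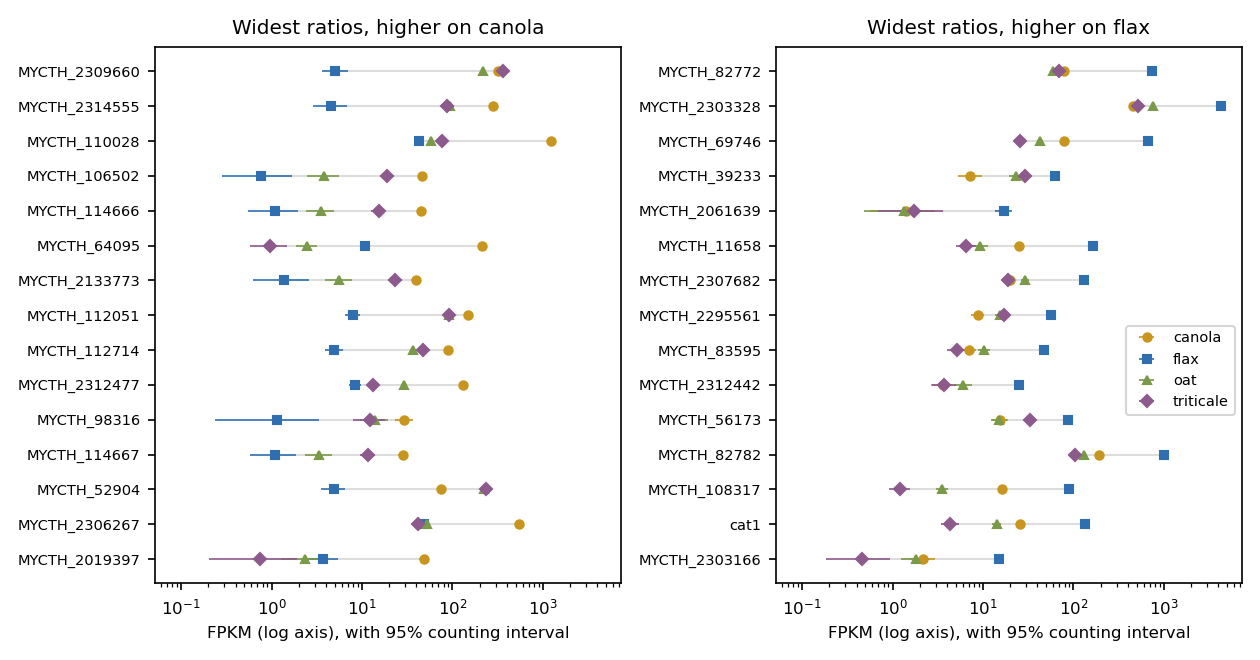
FPKM (log axis) in the 4 libraries of the 15 genes with the largest ratio in each direction, out of those reaching 10 FPKM in the library where they are higher, sorted by the ratio on the scale of FPKM + 1; bars are 95% counting intervals. On the left the oat and triticale points are spread between and beyond the canola and flax points, and on the right the flax point is the highest for all 15 genes.

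The 289 flax-higher genes had a median of 30.5 FPKM on flax (quartiles 13.3 and 95.9) and 11.2 on canola (4.38 and 35.2), close to their medians of 13.01 on oat and 11.3 on triticale. Their summed share of reads was 7.66% on flax, 2.59% on canola, 3.06% on oat and 2.72% on triticale. Of these genes, 230 reached 10 FPKM on flax and 71 reached 100 FPKM. As with the canola-higher genes, the set was chosen on these values.

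MYCTH_82772 had the largest ratio on the flax side on the scale of FPKM + 1. It had 738 FPKM on flax (723 to 753) and 78.5 on canola (73.8 to 83.5), with 58.8 on oat and 69.2 on triticale. Its ratio of flax to canola was 9.40 (8.81 to 10.0). MYCTH_2303328 was far more abundant, with 4252 FPKM on flax (4211 to 4292), 460 on canola (446 to 473), 759 on oat and 522 on triticale, a ratio of 9.25 (8.97 to 9.54). For both genes the flax library stood apart and the other 3 were within 2-fold of each other.

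MYCTH_39233 had 62.7 FPKM on flax, 7.24 on canola, 23.4 on oat and 29.4 on triticale, a ratio of flax to canola of 8.65 (6.37 to 12.01). MYCTH_2295561 had 57.0 FPKM on flax, 8.73 on canola, 15.3 on oat and 17.1 on triticale, a ratio of 6.53 (5.55 to 7.74). In these 2 genes canola lay below both cereal libraries as well as below flax. MYCTH_2061639 had the largest plain ratio among the 15 widest, 11.9, but on 7 reads on canola and 83 on flax, so that its interval ran from 5.52 to 30.5.

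MYCTH_2307682 (130 FPKM on flax, 19.8 on canola, 29.1 on oat, 19.01 on triticale) and MYCTH_83595 (46.8, 7.03, 10.2 and 5.15, in the same order) had the other 3 libraries within 2-fold of each other. For MYCTH_83595 the counting intervals of oat (8.72 to 11.97) and triticale (4.02 to 6.49) did not overlap. MYCTH_2303166 had 15.02 FPKM on flax and 2.19 on canola, with 1.80 on oat and 0.458 on triticale. MYCTH_56173 had 87.2 FPKM on flax and 15.4 on canola, with 15.02 on oat and 32.9 on triticale. In all 15 flax-higher genes with the largest ratios, which ran from 5.03-fold to 9.30-fold on the scale of FPKM + 1, flax was the highest of the 4 libraries, and in 4 of them canola was the lowest.

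The order of the 4 libraries was then counted over the whole sets, keeping in mind that the rule itself places canola above flax in one set and below it in the other. Canola was the highest of the 4 libraries in 119 of the 144 genes at least 4-fold higher on canola, and flax was the lowest in 109. In 25 of the 144 at least 1 of the 24 h cereal libraries was above the 30 h canola library. Among the 27 genes at least 4-fold higher on flax, flax was the highest of the 4 libraries in 27, canola was the lowest in 10 and a cereal library was the lowest in 17. At 2-fold, canola was the highest in 530 of the 651 canola-higher genes and flax in 263 of the 289 flax-higher genes. Over all 8244 genes compared canola was the highest in 2434 and flax in 2500, canola was the lowest in 2003, flax in 1693 and a cereal library in 4548. A cereal library was thus the lowest in most genes of the whole comparison as well as in most of the 27. Oat and triticale are both cereals, and the rule keeps flax from being the lowest in the 27, so this is no trait particular to them. The triticale library also had the lowest median over all genes compared, at 16.5 FPKM against 22.1 on canola, 21.7 on flax and 21.5 on oat. The flax-higher genes were chosen for a high value in the flax library, which itself favours flax as the highest of the 4. No 30 h library of another straw was measured, and the part of culture time was not tested in either set.

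The differences were also weighed by reads, which favours long and abundant genes. The read shares that were higher on canola exceeded those on flax by 17.1 percentage points in sum, and the 651 canola-higher genes gave 8.09 of these points. In the other direction the 289 flax-higher genes gave 5.08 points. The 10 genes with the largest gain gave 2.09 points on the canola side and 4.05 points on the flax side. On the canola side 9 of these 10 genes were past 2-fold and on the flax side 4 of 10, so the flax side was carried more by abundant genes with modest ratios.

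MYCTH_87219 had the largest gain on canola, with 0.357% of reads on canola and 0.0372% on flax. It stood at 3845 FPKM on canola, 401 on flax, 896 on oat and 1136 on triticale, a ratio of canola to flax of 9.59 (9.24 to 9.97). MYCTH_55717 stood at 1802 FPKM on canola against 261 on flax, with 190 on oat and 97.4 on triticale, a ratio of 6.89 (6.65 to 7.14). Both are abundant genes for which the canola library was the highest.

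Further gains on canola were those of MYCTH_102322 (2470 FPKM on canola, 559 on flax, 564 on oat, 586 on triticale), MYCTH_110532 (1597, 195, 348 and 505, in the same order), MYCTH_66783 (877, 121, 327 and 110) and MYCTH_80427 (632, 87.3, 81.4 and 42.4). Their ratios of canola to flax were 4.42 (4.29 to 4.56), 8.20 (7.81 to 8.60), 7.23 (6.91 to 7.58) and 7.24 (6.90 to 7.60). MYCTH_2303011 stood at 1157 FPKM on canola against 392 on flax, for a ratio of 2.95 (2.88 to 3.03). MYCTH_112686, with 1715 FPKM on canola and 821 on flax, was close to the threshold at a log2 ratio of 1.06. It fell below 2-fold with upper-quartile scaling (0.98) and with the trend of the log2 ratio with level removed (0.98). The same held with the trends with length and level both removed (0.96). In each of these genes the canola library was the highest of the 4.

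On the flax side MYCTH_2314451 took 2.07% of flax reads and 1.04% of canola reads, the largest single shift. It had 8711 FPKM on flax and 4371 on canola, a ratio of 1.99 (1.98 to 2.01), and was short of 2-fold on the scale of FPKM + 1. MYCTH_2303328 followed, and MYCTH_2297659 had 5599 FPKM on flax and 3257 on canola, a ratio of 1.72 (1.70 to 1.74). MYCTH_75296 had 1869 FPKM on flax, 706 on canola, 697 on oat and 587 on triticale, a ratio of 2.65 (2.60 to 2.70). Some of the genes with a large read gain on flax are long. MYCTH_105482, of 7699 bases, had 498 FPKM on flax, 189 on canola, 92.2 on oat and 48.8 on triticale. MYCTH_75351, of 25321 bases, had 126 FPKM on flax, 38.4 on canola, 32.4 on oat and 31.8 on triticale, a ratio of 3.27 (3.19 to 3.36).

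The most abundant models in both libraries were short. MYCTH_2071953 (455 bases), MYCTH_2071504 (219), MYCTH_2071514 (497), MYCTH_2071285 (188) and model 2071561 (429) held the first 5 places in each library, at 11819 to 18818 FPKM on canola and 19011 to 27624 on flax. Their ratios of flax to canola lay between 1.42 and 1.72, so none of these 5 models was past 2-fold. The short model MYCTH_2307942 (301 bases) was the other way round, with 7739 FPKM on canola against 3259 on flax, a ratio of canola to flax of 2.37 (2.31 to 2.44). Triticale had the highest value of this model, at 11841 FPKM, and oat had 6909.

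Among the 48 genes with a mean of at least 1000 FPKM over the 2 libraries, 7 (14.6%) were at least 2-fold higher on canola. On flax 4 (8.33%) were at least 2-fold higher. Both shares were above those over all genes compared, 7.90% and 3.51%, but rest on few genes. Of those not yet described, MYCTH_2314963 had 2121 FPKM on canola and 311 on flax, with still higher values of 2455 on oat and 4425 on triticale. MYCTH_113600 had 2069 FPKM on flax and 554 on canola, with 637 on oat and 865 on triticale. Flax stood apart from the other 3 libraries in both, below them in the first gene and above them in the second. MYCTH_2134407 (1978 FPKM on canola, 952 on flax) and MYCTH_94171 (972 on canola, 2104 on flax) were close to 2-fold, with ratios of canola to flax of 2.08 and 0.46.

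Below a mean of 1000 FPKM, the share of genes past 2-fold ranged over the 5 level groups from 6.30% to 10.6% on the canola side and from 2.57% to 4.81% on the flax side. It depended on gene length more regularly on the canola side, where the share was 10.3% in the shortest of 4 length groups and 5.63% in the longest. On the flax side the shares from the shortest to the longest group were 5.002%, 2.62%, 3.78% and 2.62%. The median length was 1592 bases for the canola-higher genes, 1697 for the flax-higher genes and 1796 for all genes compared. With the trend of the log2 ratio with length removed, the counts were 676 and 271, beside the 651 and 289 found without this step. Removing the trend shifts the centre of the log2 ratio and not its spread. The median log2 ratio of the 4 length groups already lay between -0.06 and 0.02. The larger shares among short genes were thus not addressed by this step.

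**Figure D4:**
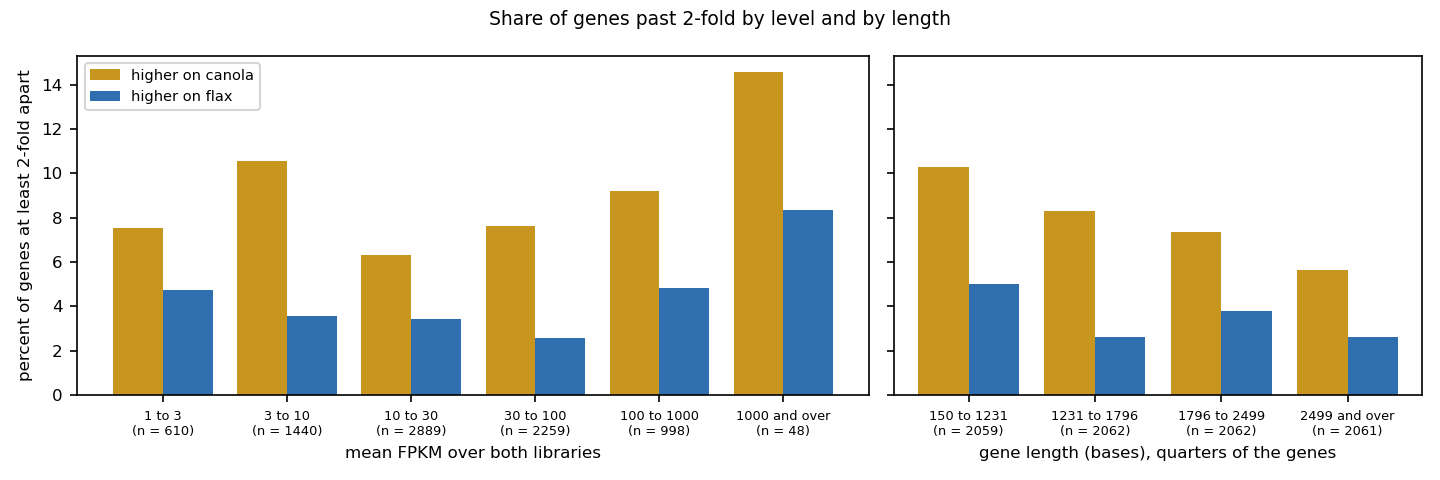
Bars give the percent of genes at least 2-fold higher on canola or on flax, grouped by mean FPKM over both libraries on the left and by 4 groups of gene length of nearly equal size on the right, with the number of genes n below each group. Canola-higher genes outnumber flax-higher genes in every group, and their share falls from 10.3% in the shortest to 5.63% in the longest group.

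Genes past 2-fold often lay next to each other in the order of protein-coding genes of the RefSeq assembly. Of the canola-higher genes with a compared gene next in order, 126 of 580 (21.7%) were followed by another canola-higher gene, against 7.90% of all genes compared. Of the flax-higher genes 62 of 246 (25.2%) were followed by another flax-higher gene, against 3.51%. Runs of 3 or more neighbours with the same direction numbered 21 on the canola side, with 73 genes, and 10 on the flax side, with 39 genes. Neighbours whose spans overlap can share reads, since nothing in the labels says that strand was kept. With overlapping neighbours left out the shares were 21.2% and 25.2%, and without the genes of the 5 longest runs they were 20.4% and 21.0%. The runs were found from the same values, so their ratios are descriptions with no test.

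The longest run on the canola side held 7 genes, and all 7 were highest on canola. Their median was 28.1 FPKM on canola, 11.6 on triticale, 3.37 on oat and 1.10 on flax, and their ratios of canola to flax ran from 5.05 to 59.3. In order, the genes were MYCTH_2303048, MYCTH_2133773, MYCTH_78019, MYCTH_106502, MYCTH_78013, MYCTH_114667 and MYCTH_114666. The spans of MYCTH_2133773 and MYCTH_78019 overlap.

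The members fell into 2 patterns over the other libraries. In 4 genes the order from high to low was canola, triticale, oat and flax. MYCTH_106502 had 45.9 FPKM on canola, 19.1 on triticale, 3.79 on oat and 0.774 on flax, a ratio of canola to flax of 59.3 (27.0 to 163). MYCTH_2133773 had 39.8, 23.3, 5.59 and 1.36 FPKM in the same order of straws, MYCTH_114666 had 44.8, 15.2, 3.49 and 1.10, and MYCTH_114667 had 28.1, 11.6, 3.37 and 1.09.

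In the other 3 genes canola stood alone. MYCTH_78013, a long model of 12611 bases, had 7.49 FPKM on canola, 0.130 on flax, 0.228 on oat and 0.232 on triticale, with 754 reads on canola and 13, 21 and 19 reads on the others. Its ratio of canola to flax was 57.8 (33.6 to 109). MYCTH_2303048 had 14.3 FPKM on canola, 2.54 on flax, 1.42 on oat and 1.195 on triticale. MYCTH_78019 had 12.9 FPKM on canola, 2.55 on flax, 2.48 on oat and 1.63 on triticale. With a pseudocount of 10 these 3 low genes were below 2-fold, at log2 ratios of 0.79, 0.95 and 0.87, while the other 4 members stayed above it.

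The run had a sharp edge on both sides. The 2 genes before it, MYCTH_2303046 and MYCTH_2029812, were higher on flax, with 40.7 and 33.7 FPKM on flax against 8.59 and 7.97 on canola. The gene after it, MYCTH_2303060, was level, with 6.54 FPKM on canola and 6.73 on flax. Genes of opposite direction thus lay side by side at one end of the run.

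The longest run on the flax side also held 7 genes, MYCTH_2064854, MYCTH_82782, MYCTH_11658, MYCTH_108317, MYCTH_69746, MYCTH_82772 and MYCTH_108314 in order, with no overlapping spans. All 7 were highest on flax, with a median of 164 FPKM on flax, 40.8 on canola, 28.2 on oat and 25.8 on triticale. They include MYCTH_82772, the widest on the flax side, and 5 of the 15 genes with the largest ratios in all. Together they held 43713 reads on flax, 6918 on canola, 3855 on oat and 2823 on triticale.

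MYCTH_82782 was the most abundant member, with 1007 FPKM on flax, 191 on canola, 130 on oat and 103 on triticale, a ratio of flax to canola of 5.28 (5.07 to 5.50). MYCTH_69746 had 659 FPKM on flax, 79.4 on canola, 42.5 on oat and 25.8 on triticale, a ratio of 8.29 (7.82 to 8.81). MYCTH_11658 had 164 FPKM on flax, 24.9 on canola, 9.18 on oat and 6.52 on triticale, a ratio of 6.61 (5.82 to 7.52). In these genes canola was the second highest library.

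MYCTH_108317, with 7198 bases the longest member, showed the steepest order, with 89.5 FPKM on flax, 16.3 on canola, 3.52 on oat and 1.20 on triticale. MYCTH_2064854, with 492 bases the shortest, had 131 FPKM on flax, 40.8 on canola, 17.2 on oat and 6.88 on triticale. MYCTH_108314, at the end of the run, had 95.9 FPKM on flax and between 27.6 and 28.2 on canola, oat and triticale, so that flax alone stood apart. The genes on either side were outside the pattern. MYCTH_2306185 had 14.05 FPKM on canola and 7.44 on flax, and MYCTH_2127750 had 7.07 on canola and 12.7 on flax.

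**Figure D5:**
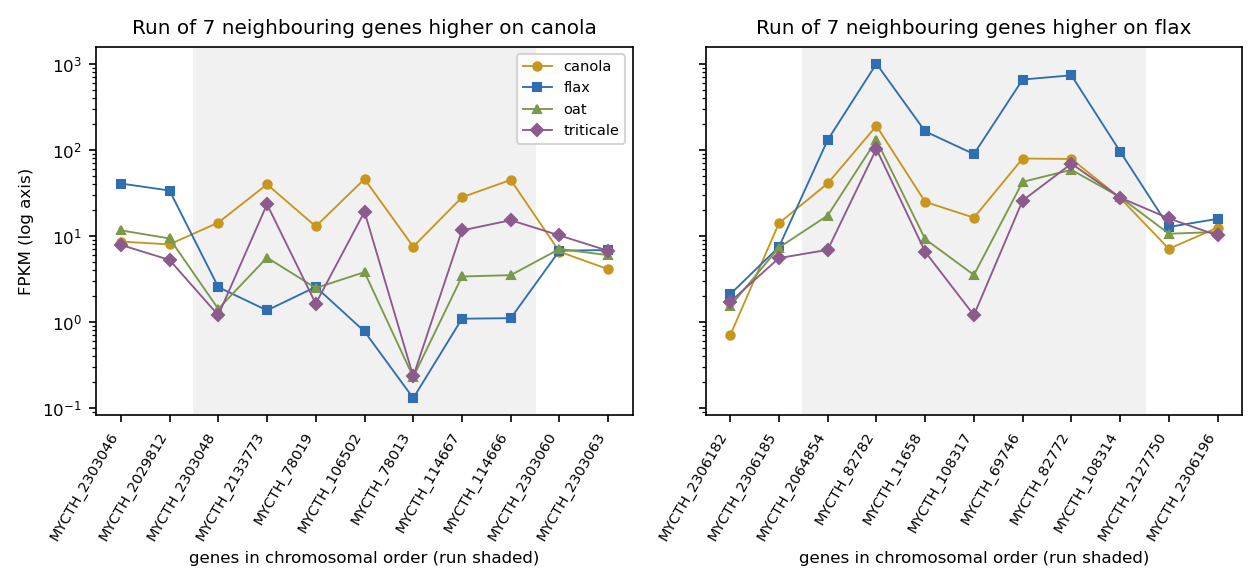
FPKM (log axis) in the 4 libraries along the run of 7 neighbouring genes higher on canola (left) and the run of 7 higher on flax (right), with the run shaded and 2 flanking genes on each side in chromosomal order; lines join the genes of 1 library. On the left the canola line is the highest within the shading and the flax line is above it in the 2 genes before it, and on the right the flax line is the highest within the shading.

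Of the next longest runs, 3 held 5 genes each, and each was less steep. The flax-higher run of MYCTH_2140533, MYCTH_2310379, MYCTH_109870, MYCTH_2096317 and MYCTH_2316248 had ratios of flax to canola from 3.17 to 4.02. Its most abundant gene, MYCTH_109870, had 117 FPKM on flax, 30.9 on canola, 14.8 on oat and 8.22 on triticale. The median of the run was 57.5 FPKM on flax, 17.4 on canola, 7.32 on oat and 8.09 on triticale, so both dicot straws were above both cereals.

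The flax-higher run of MYCTH_2304419, MYCTH_2304420, MYCTH_2304423, MYCTH_2304424 and MYCTH_2304427 was lower, with a median of 18.2 FPKM on flax and 5.83 on canola. Its widest gene, MYCTH_2304423, had 30.5 FPKM on flax, 5.83 on canola, 6.22 on oat and 2.17 on triticale, a ratio of 5.24 (4.17 to 6.65). With a pseudocount of 10 it was the one member past 2-fold. The canola-higher run of MYCTH_2310316, MYCTH_2129884, MYCTH_2310317, MYCTH_2310320 and MYCTH_2310321 had ratios of canola to flax from 2.31 to 2.94. Its most abundant gene, MYCTH_2310317, had 124 FPKM on canola, 42.2 on flax, 24.3 on oat and 14.03 on triticale, while MYCTH_2310316 was nearly as high on triticale (56.0 FPKM) as on canola (61.5). With a pseudocount of 10, MYCTH_2310316 and MYCTH_2310317 stayed past 2-fold and the other members did not.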

How the data were processed

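The authors deposited 1 table of FPKM values for 9110 numbered gene models in 4 libraries (canola, flax, oat and triticale straw), with the length of each model in bases, per the file headers. Per the labels' protocols, Trizol was used for extraction and an Illumina mRNA-Seq kit for library making. Aligner, counting tool, build and gene annotation: not given in the sources used here. FPKM multiplied by length in kilobases added up to 1000000 per library. These products came in steps of 1 read (100% of values within 0.001 of a whole read), which gave the reads per gene and the library totals. Single values carry exact Poisson 95% intervals and ratios exact Clopper-Pearson 95% intervals; PCR copies are not independent molecules. The detection limit was set at 3 reads and not taken from these intervals. For a gene of 1733 bases, the median, it is 0.217 FPKM on canola and 0.218 on flax.

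Model numbers were matched to locus tags of the RefSeq assembly ASM22609v1: 9087 matched, 9075 at a length equal to the RefSeq span, and 6 carried a symbol. Neighbours were taken from the order of protein-coding genes, and no positions are given because no build is named for the values. Gene lists by product text, protein pattern or promoter letters could not be evaluated, since no products or sequences were available here. With 1 library per straw there is no replicate check, no test and no p-value. Genes were called on log2(FPKM + 1) at 2-fold and 4-fold. The fold rule was tested on simulated data. Genes named in the text are those with a symbol, the 15 widest in each direction that reach 10 FPKM where they are higher, the 10 most abundant per library, the 10 with the largest read difference in each direction, the members of the 5 longest runs, and genes next to the thresholds. Flanking genes, neighbours of genes with a symbol, and MYCTH_2314963, MYCTH_113600, MYCTH_2134407 and MYCTH_94171 were added after their values were seen. The comparison and these rules were chosen with earlier results of these data known. Alternatives were computed with Python 3.11.15, NumPy 2.4.6, pandas 2.3.3, SciPy 1.17.1 and statsmodels 0.14.6.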

Additional observations from a re-analysis of the deposited data

How the results depend on the processing

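The 4 counts of genes past a fold threshold were computed under 14 alternatives. With a pseudocount of 10, 292 genes were at least 2-fold higher on canola and 111 on flax, and 51 and 10 at least 4-fold. With a pseudocount of 0.1, 47 genes were at least 4-fold higher on flax, and with the whole 95% counting interval past the fold 154 were at least 2-fold higher on flax. All other counts were within 1.5 times those reported: for 2-fold, 453 to 770 on canola and 209 to 408 on flax, with the larger number on the canola side throughout. Scaling shifted the log2 ratio by 0.08 (upper-quartile) or less, giving 581 and 353 genes. Of the 71 named genes with a log2 ratio of at least 1, 56 stayed past 2-fold under the pseudocount, scaling and trend alternatives. The pseudocount of 10 took 14 below 2-fold. None changed direction, which is no check of the direction. A pseudocount cannot turn a ratio round, and the scaling shifts were far smaller than these log2 ratios. Leaving out overlapping neighbours or the 5 longest runs was chosen after seeing the data. No paired analysis was possible because each straw has 1 library, and no library could be left out. Counting error limits genes with few reads, and the variation between cultures is unknown for every gene.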
